A study of Bos taurus with 7 samples.

Results

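The genes described here encode the signaling route from PI3K through AKT and mTOR to the FOXO transcription factors. The set holds 36 of the 23704 bovine genes to which deposited transcripts could be matched by name, and it was listed by function, with no measured value in the rule. All 36 members had a matched transcript and all 36 passed the filter on low counts and were tested. Together they held 0.214% to 0.389% of the estimated counts of a library. The libraries came from whole bovine follicles at a pair of early stages. In primary follicles (PF, 4 libraries) the oocyte is enclosed by a layer of cuboidal granulosa cells, and in secondary follicles (SF, 3 libraries) by several layers. According to the study, the ovaries came from an abattoir, from Holstein Friesian dairy cows in the second year of life. Follicles were isolated mechanically, sorted by size and shape, and pooled across many animals, and both stages had a short recovery in medium with insulin, transferrin, selenium and FSH before lysis. No genetic change and no drug treatment separated the stages, and no source used here says which cows contributed to which library.

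PI3K is a lipid kinase made of a catalytic and a regulatory subunit, and receptors for insulin, IGF1 and other growth factors recruit it through adaptors such as the IRS proteins. Its lipid product brings PDPK1 and AKT to the membrane, where AKT is switched on. AKT then restrains FOXO factors by keeping them out of the nucleus, and relieves the TSC complex's brake on RHEB, which activates mTOR complex 1 (mTORC1) and with it protein synthesis. In the ovary the route is best known from mice, where FOXO3 in the oocyte holds resting follicles dormant and FOXO1 is the main FOXO factor of granulosa cells. Much of this signaling runs through phosphorylation, which RNA levels do not record.

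Each library held 18788105 to 23764615 estimated counts. Levels are given in TPM, an abundance corrected for transcript length, so that genes can be compared within a library. A fold change is the log2 ratio of SF to PF ± SE that DESeq2 fitted to the counts, with PF replicates 1 to 3 against SF replicates 1 to 3. PF replicate 4 stayed out of the test. In it a list of 15 stromal fibroblast markers summed to 7312 TPM, against 269 to 639 TPM in the other 6 libraries. The oocyte list (21 genes matched) had 18 to 21 genes at 1 TPM or more in every library and the granulosa list (19 genes matched) had 14 to 18. The immune list (9 genes) had 1 to 4 genes at that level and the erythroid list (5 genes) had 1 or 2. The immune marker *C1QA* and the erythroid markers *HBB* and *ALAS2* were at 0 counts in all 7. The oocyte score, a mean of log2(TPM + 1), was 6.19 to 7.18 in PF replicates 1 to 3, 3.76 in PF replicate 4 and 3.11 to 5.33 in SF. The granulosa score was 3.70 to 4.15, 4.93 and 4.85 to 6.03 in the same order. Since oocyte and granulosa RNA were measured together, fewer cells of a type and less RNA per cell cannot be told apart, and the part of this shift in each difference below was not tested.

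Between the stages 5 members passed the test. *SESN2*, *AKT1*, *AKT2* and *IRS1* were higher in SF and *RPTOR* was lower. These 5 of 36 are 13.9%, below the 19.1% called among all 15056 genes tested (8.14% higher and 11% lower), so the set did not stand out by its number of calls. Its median log2 fold change was 0.16, with 25 of 36 members (69.4%) above 0, beside 0.02 and 50.8% for all genes tested. In 10 members the 3 PF and 3 SF libraries did not overlap in TPM, 7 higher in SF and 3 lower, beside 32.7% of all genes tested (14.3% higher and 18.5% lower). With PF replicate 4 counted in, 2 members still did not overlap, *SESN2* and *FOXO1*, both higher in SF, where the background was 12.8% (7.64% higher). DESeq2 on all 7 libraries called 1 member, *SESN2*, beside 5.82% of the genes. The other test run on the same counts, edgeR's quasi-likelihood test, called 0 members and 0 genes in all (0.0%), with 8 members under an unadjusted p of 0.05 (22.2%, beside 26.9% of all genes), against 10 members by DESeq2 (27.8%, beside 31.8%). Size factors taken from the oocyte list gave 27 members higher and 0 lower (54.2% of all genes higher), and those from the granulosa list 0 higher and 17 lower (41.7% of all genes lower). These scalings moved the median of all genes from 0.02 to 2.59 and to -1.66, so directions below are relative to the bulk of the genes.

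**Figure D1:**
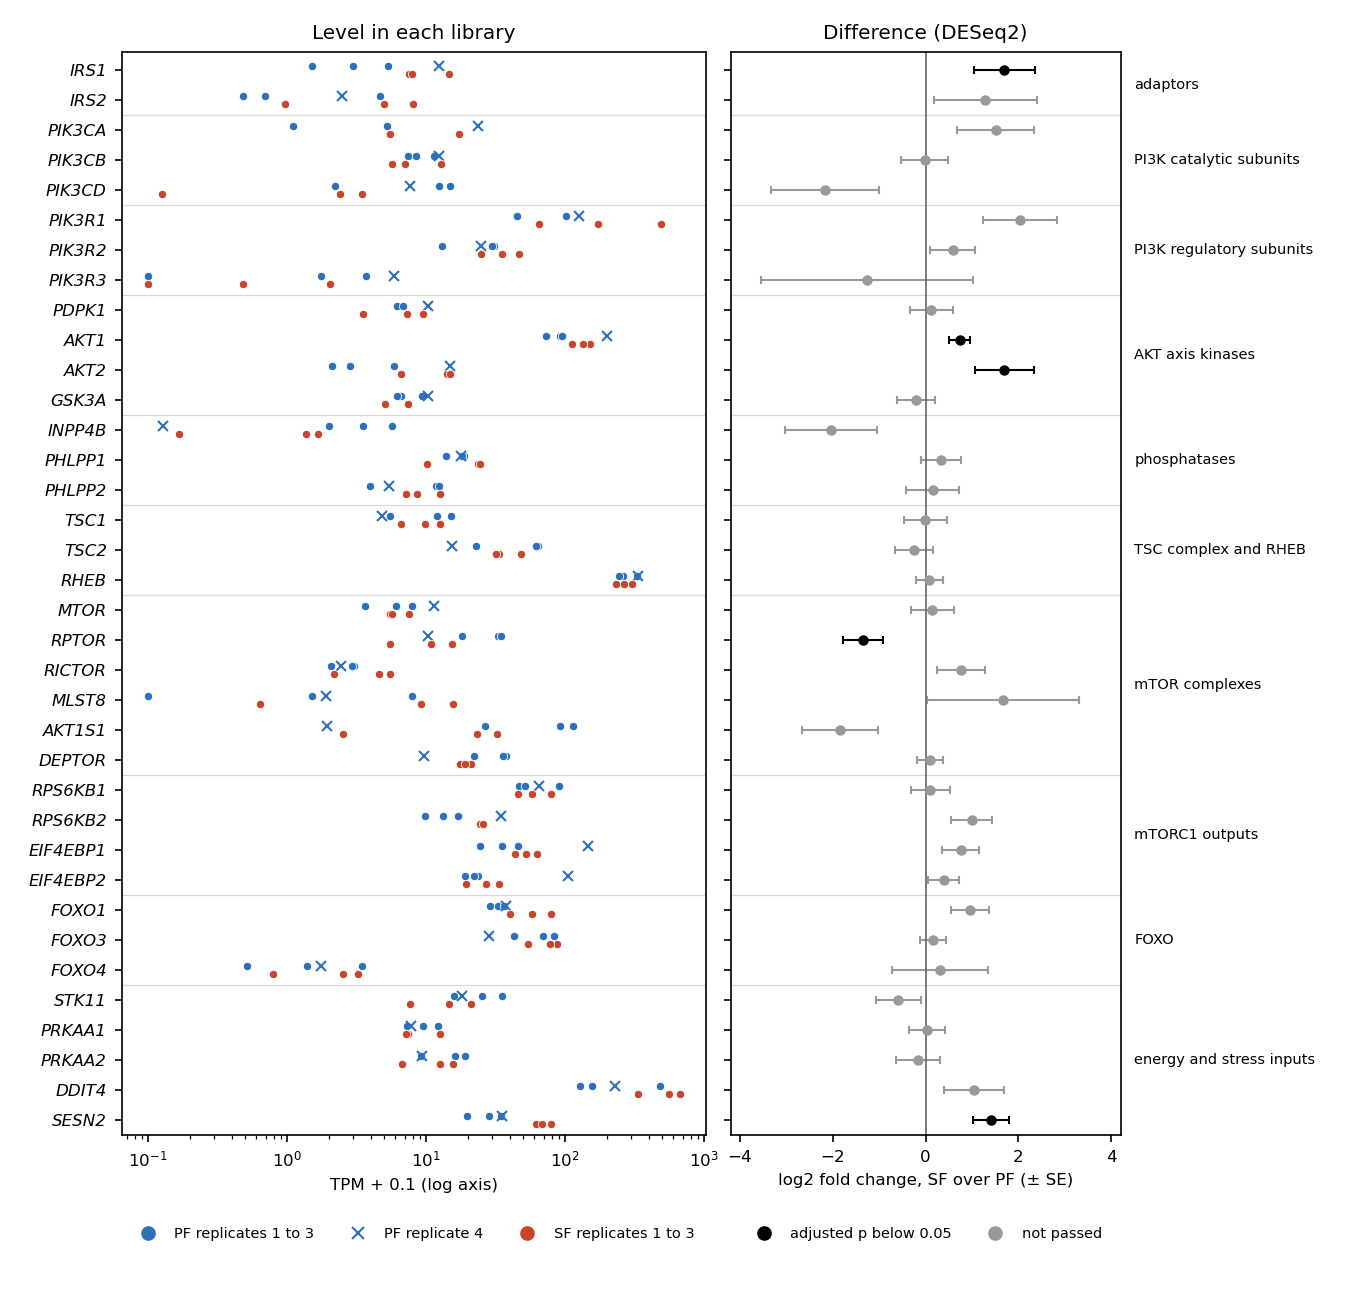
The 36 members grouped by role. Left, TPM + 0.1 in each library on a log axis, with PF replicates 1 to 3 as blue circles, PF replicate 4 as a blue cross and SF as red circles. Right, log2 fold change of SF over PF ± SE, in black for the 5 members with a DESeq2 adjusted p below 0.05. Most estimates lie within 1 unit of 0, and the widest bars belong to members at a few TPM.

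Levels within the set spanned more than 2 orders of magnitude. By the median TPM over the 7 libraries, the most abundant were *DDIT4* (332 TPM), *RHEB* (267 TPM), *AKT1* (112 TPM) and *PIK3R1* (102 TPM). The least abundant were *INPP4B* (1.57 TPM), *PIK3R3* (1.65 TPM), *FOXO4* (1.66 TPM) and *MLST8* (1.79 TPM). *PIK3R3* had 0 counts in PF replicate 2 and SF replicate 1 and *MLST8* in PF replicate 3, where a count of 0 allows up to 3 counts. The members' summed level was 1225, 1309, 1372 and 1576 TPM in PF replicates 1 to 4 and 1429, 1780 and 2203 TPM in SF replicates 1 to 3. *PIK3R1* and *DDIT4* together made up 14.0% to 42.7% of that sum in PF and 27.7% to 52.4% in SF. Without them the sum was 786 to 1224 TPM in PF and 1032 to 1048 TPM in SF, with SF inside the PF range.

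At the adaptors, *IRS1* was higher in SF. This gene encodes the insulin receptor substrate that docks PI3K to the insulin and IGF1 receptors. Its level was 1.40, 2.88, 5.24 and 12.2 TPM in PF replicates 1 to 4 and 7.40, 7.77 and 14.6 TPM in SF. All SF libraries lay above PF replicates 1 to 3, while PF replicate 4 lay inside the SF range. The means were 3.17 ± 1.94 TPM in PF and 9.91 ± 4.04 TPM in SF (SD, n = 3), a log2 fold change of 1.70 ± 0.65 (DESeq2 adjusted p = 0.0496). This is the weakest of the 5 calls, and it ended with independent filtering tuned to 0.1 (DESeq2 adjusted p = 0.0509), with PF replicate 4 kept (0.59), and without PF replicate 1 (0.16), PF replicate 2 (0.18) or SF replicate 1, 2 or 3 (0.066, 0.089 and 0.26). Its paralog *IRS2* was at 0.385 to 4.55 TPM in PF and 0.859 to 7.90 TPM in SF and did not pass (1.29 ± 1.11, DESeq2 adjusted p = 0.45). Without PF replicate 3 *IRS2* passed.

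Among the catalytic subunits of PI3K, none of 3 passed, and their estimates pointed in different directions. *PIK3CD*, the delta subunit best known from leukocytes, was at 12.3, 14.7, 2.10 and 7.51 TPM in PF and 3.38, 2.32 and 0.0267 TPM in SF, the last from 2 counts. PF replicate 3 fell inside the SF range, and the log2 fold change of -2.17 ± 1.17 did not pass (DESeq2 adjusted p = 0.19). The immune marker list summed to 94.2, 64.7, 45.8 and 9.34 TPM in PF and 37.5, 24.1 and 6.35 TPM in SF. Of its 9 genes 1 to 4 were at 1 TPM or more in a library. Its score, a mean of log2(TPM + 1), was 1.02, 0.88, 1.48 and 0.573 in PF and 1.56, 1.15 and 0.607 in SF. The part of such cells in *PIK3CD* was not tested. *PIK3CA*, the alpha subunit, was at 0.999, 5.15, 5.12 and 23.5 TPM in PF and 5.35, 5.38 and 17.2 TPM in SF. SF replicates 1 and 2 lay just above PF replicates 2 and 3, and the difference was not past the threshold (1.51 ± 0.83, DESeq2 adjusted p = 0.19). *PIK3CB*, the beta subunit, was at 7.31 to 12.3 TPM in PF and 5.54 to 12.7 TPM in SF (-0.02 ± 0.50). Of the summed catalytic TPM, *PIK3CD* held 59.7%, 47.2%, 13.5% and 17.3% in PF and 21.5%, 17.5% and 0.0891% in SF.

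The regulatory subunits were dominated by *PIK3R1*, which encodes the p85-alpha subunit and its shorter forms that stabilise and inhibit the catalytic subunit. It was at 43.9, 45.2, 102 and 125 TPM in PF and 64.6, 172 and 488 TPM in SF. SF replicate 1 lay below PF replicate 3, and SF replicate 3 was the highest of all. The means were 63.6 ± 33.0 TPM in PF and 242 ± 220 TPM in SF (SD, n = 3), and the log2 fold change of 2.04 ± 0.79, the largest positive estimate in the set, fell just short of the threshold (DESeq2 adjusted p = 0.0526). It passed with a transcript length offset (DESeq2 adjusted p = 0.047), with a filter of 10 counts in 3 libraries (0.036), without PF replicate 3 (0.005) and without SF replicate 1 (0.0091). It did not pass without PF replicate 1 (0.22), PF replicate 2 (0.20), SF replicate 2 (0.087) or SF replicate 3 (0.46), or with PF replicate 4 kept (0.21). Without SF replicate 3 the log2 fold change was 0.84. With a covariate for the library number, below or above 40, it was 1.22 (DESeq2 adjusted p = 0.079). The part of library number in *PIK3R1* was not tested further. *PIK3R2* (12.9 to 30.5 TPM in PF, 24.9 to 46.7 TPM in SF) and *PIK3R3* (0 to 5.80 TPM and 0 to 1.92 TPM) did not pass. Summed regulatory over summed catalytic TPM was 2.83, 2.44, 8.68 and 3.59 in PF and 6.34, 16.7 and 17.1 in SF, with PF replicate 3 inside the SF range.

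Downstream of PI3K, both AKT kinases listed were higher in SF. *AKT1*, the broadly expressed form, was at 91.1, 94.8, 72.3 and 201 TPM in PF and 151, 134 and 112 TPM in SF. The SF libraries lay above PF replicates 1 to 3, but PF replicate 4 was the highest of the 7. The means were 86.1 ± 12.1 TPM in PF and 132 ± 19.7 TPM in SF (SD, n = 3), a log2 fold change of 0.73 ± 0.23 (DESeq2 adjusted p = 0.014). *AKT2*, the form best known from insulin-stimulated glucose uptake, was at 2.75, 2.01, 5.75 and 14.8 TPM in PF and 6.45, 14.1 and 14.7 TPM in SF. Again PF replicate 4 was the highest, and SF replicate 1 was close to PF replicate 3. The means were 3.5 ± 1.98 and 11.7 ± 4.58 TPM (SD, n = 3), a log2 fold change of 1.69 ± 0.64 (DESeq2 adjusted p = 0.044).

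Both AKT calls rested on single libraries. Once PF replicate 4 was added, the DESeq2 adjusted p was 0.86 for *AKT1* and 0.67 for *AKT2*. Without PF replicate 1, PF replicate 2 or SF replicate 2 it was 0.095, 0.0536 and 0.057 for *AKT1* and 0.17, 0.16 and 0.20 for *AKT2*, and without SF replicate 3 *AKT2* was lost as well (0.19). The *AKT2* call also ended with a filter of 10 counts in 3 libraries (DESeq2 adjusted p = 0.0538). *AKT1* outweighed *AKT2* in every library, with 88.4% to 97.9% of their summed TPM. *PDPK1*, the kinase that phosphorylates AKT, was at 6.06 to 10.3 TPM in PF and 3.44 to 9.41 TPM in SF (0.13 ± 0.46, 95% interval -0.78 to 1.03). *GSK3A*, a kinase that AKT inhibits, was at 6.05 to 10.2 and 4.92 to 7.27 TPM (-0.21 ± 0.41). Neither passed.

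**Figure D2:**
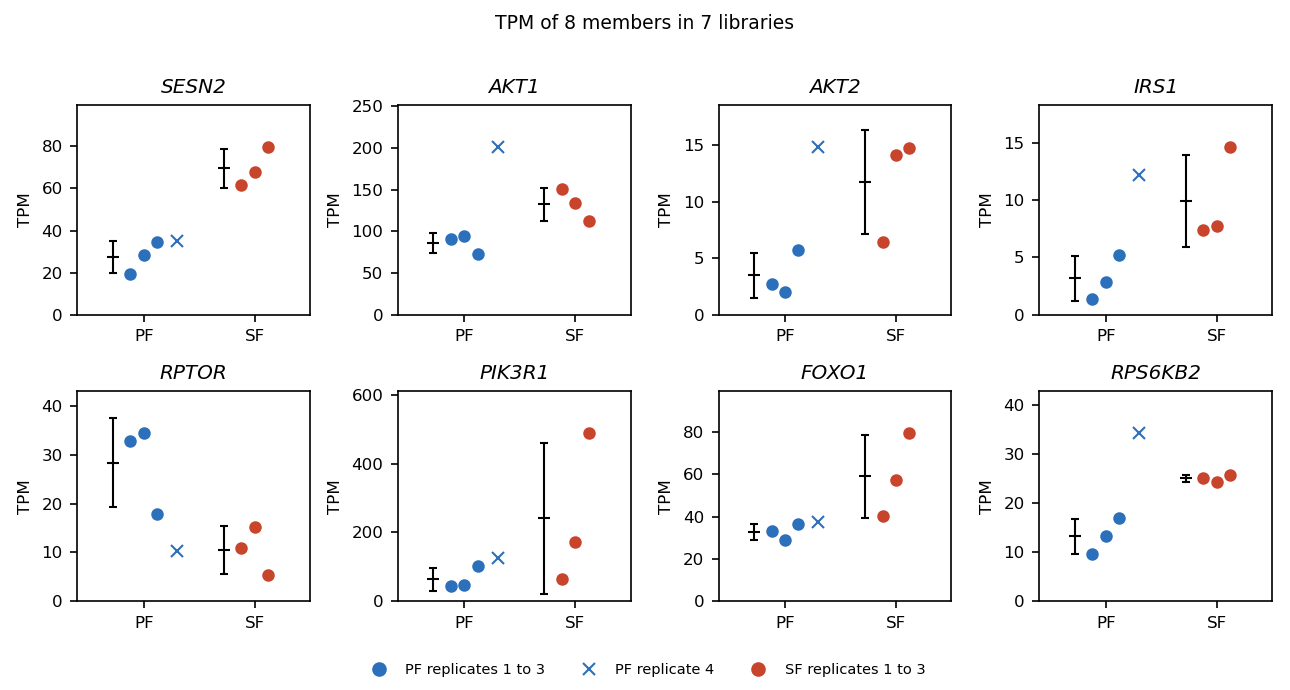
TPM of 8 members in each library of PF and SF, with the black bar giving the mean ± SD over PF replicates 1 to 3 and over SF replicates 1 to 3. *SESN2* and *FOXO1* keep all SF libraries above all PF libraries, while PF replicate 4 (blue cross) is the highest PF library for *AKT1*, *AKT2*, *IRS1* and *RPS6KB2* and the lowest for *RPTOR*.

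The phosphatases that oppose this route did not pass the test in any of 3 members. *INPP4B*, which removes a phosphate from the lipids made by PI3K, was at 5.62, 3.43, 1.89 and 0.0284 TPM in PF and 1.57, 1.27 and 0.0657 TPM in SF. The SF libraries lay below PF replicates 1 to 3, and PF replicate 4, with 2 counts, lay below all of them. The log2 fold change of -2.03 ± 0.99 did not pass (DESeq2 adjusted p = 0.13). *PHLPP1* and *PHLPP2*, which remove phosphate from AKT itself, were at 13.8 to 18.6 and 3.85 to 12.2 TPM in PF and at 10.1 to 24.2 and 7.05 to 12.5 TPM in SF. Their log2 fold changes were 0.33 ± 0.44 and 0.15 ± 0.57.

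Estimates for the TSC complex and its target RHEB lay near 0, and none passed. *TSC1* was at 4.74 to 15.1 TPM in PF and 6.50 to 12.4 TPM in SF (-0.0044 ± 0.47), and *TSC2* at 15.2 to 63.6 and 31.6 to 48.2 TPM (-0.25 ± 0.41). *RHEB*, the GTPase that turns mTORC1 on, was at 261, 330, 242 and 332 TPM in PF and 303, 233 and 267 TPM in SF. The stages overlapped fully, and the 95% interval of its log2 fold change ran from -0.49 to 0.65, so a change larger than that in either direction is outside the interval while a smaller one could not be seen with these libraries.

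In the mTOR complexes the member that passed was *RPTOR*, the scaffold that defines mTORC1 and brings substrates to it. It was at 32.8, 34.4, 17.9 and 10.2 TPM in PF and 10.8, 15.2 and 5.36 TPM in SF. All SF libraries lay below PF replicates 1 to 3, and PF replicate 4 lay inside the SF range. The means were 28.4 ± 9.08 TPM in PF and 10.5 ± 4.94 TPM in SF (SD, n = 3), 2.54-fold lower, with a log2 fold change of -1.34 ± 0.43 (DESeq2 adjusted p = 0.016). Keeping PF replicate 4 removed the call (DESeq2 adjusted p = 0.18), as did leaving out PF replicate 1 (0.08) or PF replicate 2 (0.10). *MTOR*, the kinase of both complexes, was at 3.51 to 11.3 TPM in PF and 5.40 to 7.42 TPM in SF (0.14 ± 0.46), and *RICTOR*, the scaffold of mTOR complex 2, at 1.98 to 2.92 and 2.08 to 5.43 TPM (0.76 ± 0.52). Neither passed, and nor did *MLST8*, a subunit of both complexes (1.67 ± 1.64).

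The mTORC1 inhibitor *AKT1S1*, also called PRAS40 and itself an AKT substrate, varied widely within both stages. It was at 91.1, 114, 26.3 and 1.84 TPM in PF and 32.5, 23.2 and 2.43 TPM in SF. PF replicates 1 and 2 stood far above the rest, and PF replicate 3 lay between SF replicates 1 and 2. The log2 fold change of -1.84 ± 0.81 missed the threshold (DESeq2 adjusted p = 0.091), and it passed without PF replicate 3 (0.041) or SF replicate 1 (0.034). The oocyte score was lowest in the same 2 libraries, PF replicate 4 and SF replicate 3, in which *AKT1S1* was lowest, and those libraries were also the lowest of their stage for *RPTOR* and *INPP4B*. The part of oocyte RNA in these levels was not tested.

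**Figure D3:**
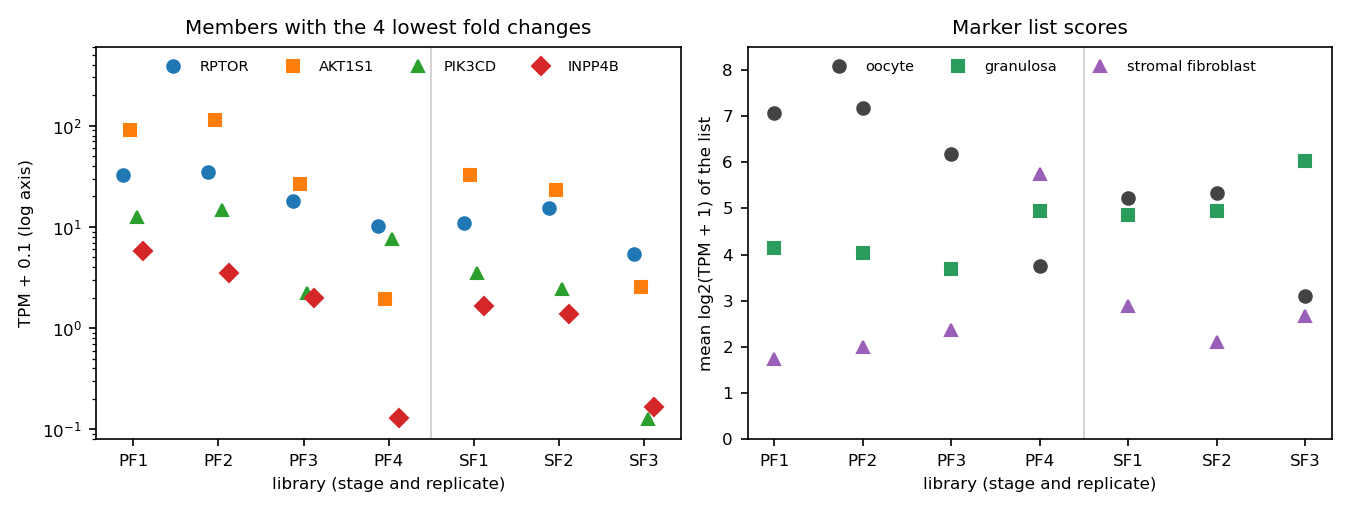
Left, TPM + 0.1 on a log axis in each library for the 4 members with the lowest fold changes, *PIK3CD*, *INPP4B*, *AKT1S1* and *RPTOR*, of which *RPTOR* passed the test. Right, mean log2(TPM + 1) of the oocyte, granulosa and stromal fibroblast marker lists, in which PF replicate 4 and SF replicate 3 have the lowest oocyte scores and PF replicate 4 the highest stromal score.

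*DEPTOR*, an inhibitor that binds mTOR in both complexes, gave different answers on different scales. Its TPM was 37.7, 35.8, 22.0 and 9.63 in PF and 17.5, 20.8 and 19.1 in SF, so that SF lay below PF replicates 1 to 3. On counts the log2 fold change was 0.09 ± 0.28 (DESeq2 adjusted p = 0.87), and with an offset for transcript length it was -0.59 (0.13). The gene had 11 transcript models of unequal length. A predicted model of 6065 bases took 12.2%, 5.7%, 7.6% and 23.0% of its TPM in PF and 47.8%, 35.7% and 27.6% in SF, and a predicted noncoding model of 1700 bases took 28.2%, 34.2%, 51.3% and 0% in PF and 0%, 8.7% and 0% in SF. The direction for *DEPTOR* therefore differed between the scales, and no scale gave a call. Salmon divides reads among models that share sequence, so these shares are estimates.

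Other members showed model shares that varied within a stage. For *AKT1S1* the curated model of 1673 bases held 93.6%, 91.9%, 80.5% and 0% of the TPM in PF and 78.0%, 86.1% and 0% in SF, so the 2 libraries with least *AKT1S1* had none assigned to it. For *TSC1* a model of 8820 bases held 37.5%, 45.4%, 6.6% and 0% in PF and 0% in all 3 SF libraries, beside one of 8723 bases that took the rest. For *SESN2* a model of 3537 bases held 100%, 92.8%, 13% and 27.1% in PF and 72.4%, 37.0% and 23.8% in SF. *RPTOR*, *FOXO1* and *IRS1* each had 1 matched model, and nearly all of *AKT1* came from 1 of 2.

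None of the 4 outputs of mTORC1 passed the test. *RPS6KB2*, which encodes the second S6 kinase, was at 9.64, 13.2, 16.9 and 34.3 TPM in PF and 25.2, 24.4 and 25.7 TPM in SF. The SF libraries were close together and above PF replicates 1 to 3, with PF replicate 4 highest. The log2 fold change of 0.99 ± 0.44 did not pass (DESeq2 adjusted p = 0.095), and it passed without PF replicate 3 (0.0059). *RPS6KB1*, which encodes the first S6 kinase, was more abundant, at 46.4 to 90.1 TPM in PF and 46.0 to 78.4 TPM in SF (0.11 ± 0.42). The repressors of cap-dependent translation *EIF4EBP1* and *EIF4EBP2* had log2 fold changes of 0.76 ± 0.39 and 0.39 ± 0.33, and both were far higher in PF replicate 4 (145 and 105 TPM) than in the other 6 libraries (24.5 to 63.1 and 19.1 to 33.1 TPM).

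Of the FOXO factors, *FOXO1* separated the stages in all 7 libraries without passing the test. It was at 33.0, 28.8, 36.4 and 37.6 TPM in PF and 40.2, 57.4 and 79.5 TPM in SF. Every SF library exceeded every PF library, by little in SF replicate 1. The means were 32.7 ± 3.80 TPM in PF and 59.0 ± 19.7 TPM in SF (SD, n = 3), with a log2 fold change of 0.96 ± 0.41 (DESeq2 adjusted p = 0.079, edgeR adjusted p = 0.13). It passed without PF replicate 3 (DESeq2 adjusted p = 0.039) or SF replicate 1 (0.026). *FOXO3* was at 83.5, 69.5, 42.9 and 28.3 TPM in PF and 88.0, 77.4 and 54.1 TPM in SF. The stages overlapped, and its 95% interval ran from -0.39 to 0.71 on the log2 scale (0.16 ± 0.28). *FOXO4* was low, at 0.419 to 3.35 TPM in PF and 0.691 to 3.11 TPM in SF. Of the summed FOXO TPM, *FOXO1* held 28.2%, 28.9%, 44.0% and 55.7% in PF and 31.2%, 41.8% and 58.2% in SF. Its share was highest in the libraries with the lowest oocyte score of each stage, PF replicate 4 and SF replicate 3, and the part of cell makeup in it was not tested.

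The stress and energy inputs held the call with the smallest adjusted p of the set. *SESN2* encodes sestrin 2, a stress-induced protein that senses leucine and restrains mTORC1. It was at 19.6, 28.3, 34.6 and 34.9 TPM in PF and 61.5, 67.6 and 79.6 TPM in SF, and the lowest SF library was well above the highest PF library. The means were 27.5 ± 7.54 TPM in PF and 69.5 ± 9.21 TPM in SF (SD, n = 3), 2.66-fold higher, with a log2 fold change of 1.41 ± 0.39 (DESeq2 adjusted p = 0.0041). It passed with each of the 6 tested libraries left out in turn (DESeq2 adjusted p = 0.00014 to 0.034), with PF replicate 4 kept (0.025) and with limma on log2(TPM + 1) (limma adjusted p = 0.0487), and missed with limma on log2(TPM + 0.1) (limma adjusted p = 0.063) and with edgeR (edgeR adjusted p = 0.061). Within library numbers below 40 and above 40, without PF replicate 4, the difference in log2(TPM + 1) was 1.35 and 1.06.

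*DDIT4*, the most abundant member, encodes REDD1, another stress-induced brake on mTORC1. It was at 128, 155, 484 and 228 TPM in PF and 332, 560 and 667 TPM in SF. PF replicate 3 lay inside the SF range, and the log2 fold change of 1.04 ± 0.66 did not pass (DESeq2 adjusted p = 0.27), although it did without PF replicate 3 (7e-05). *STK11*, the kinase that activates AMPK, was at 15.9 to 35 TPM in PF and 7.62 to 21.1 TPM in SF (-0.58 ± 0.48). The catalytic AMPK subunits *PRKAA1* and *PRKAA2* had log2 fold changes of 0.04 ± 0.39 and -0.17 ± 0.48. None of these 3 kinases passed.

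The ranges of library number may mark a series of library preparation, and the labels do not explain them. As for *SESN2*, all SF libraries of the other calls lay on the same side of PF replicates 1 to 3. The sign within each range was therefore fixed in advance, and only the sizes are given. Below 40 (PF replicates 1 and 2 against SF replicate 1) and above 40 (PF replicate 3 against SF replicates 2 and 3), the difference in log2(TPM + 1) was 0.70 and 0.75 for *AKT1*, 1.15 and 1.19 for *AKT2*, 1.46 and 0.90 for *IRS1* and -1.55 and -0.90 for *RPTOR*. With 1 library on a side no test was made.

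Ratios between members of a library do not depend on how libraries are scaled, and 11 pairs were compared. None of the 11 passed an exact permutation test between the stages, two-sided, which has 35 ways to split the 7 libraries. Its p can reach 0.0286 at the lowest before adjustment. After adjustment over the 11 pairs a single pair at that value could not fall below 0.05, so the test could not call a pair alone. The largest difference was in *RICTOR* over *RPTOR*, the scaffolds of mTOR complex 2 and mTORC1. This ratio of TPM was 0.0918, 0.0602, 0.161 and 0.235 in PF and 0.201, 0.302 and 1.01 in SF. SF replicate 1 lay below PF replicate 4, and the log2 ratio was 1.71 higher in SF (-3.05 ± 0.87, n = 4, and -1.34 ± 1.22, n = 3, SD, exact permutation p = 0.0857, adjusted over the pairs 0.88). The difference was 1.43 for library numbers below 40 and 1.5 for those above, PF replicate 4 included. The ratios just given fix the sign within each range, so only the sizes are given. Without PF replicate 4 the 3 SF ratios lay above the 3 PF ratios (difference 2.03, exact permutation p = 0.1, and no lower value is possible with 10 splits).

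For *PIK3CA* over *PIK3CB* the ratio was 0.148, 0.462, 0.619 and 1.90 in PF and 0.768, 0.972 and 1.36 in SF, with PF replicate 4 highest (difference in log2 0.91, exact permutation p = 0.4, adjusted 0.88). For *AKT1* over *AKT2* it was 12.4 to 45 in PF and 7.59 to 23.1 in SF (-0.91, exact permutation p = 0.229, adjusted 0.88), and for *FOXO1* over *FOXO3* it was 0.395 to 1.33 and 0.458 to 1.47 (0.28, exact permutation p = 0.657, adjusted 0.943). Differences for *RPS6KB1* over *RPS6KB2* and *PRKAA1* over *PRKAA2* changed sign between the ranges of library number (-1.64 and 0.16, 1.62 and -0.65).

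**Figure D4:**
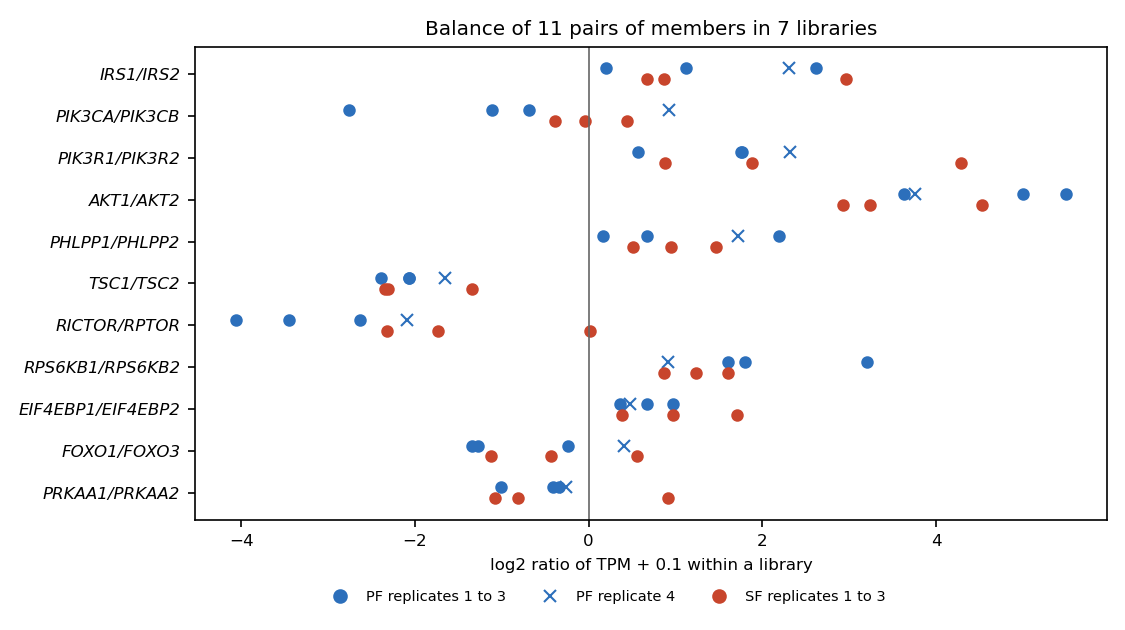
Log2 ratio of TPM + 0.1 within each library for 11 pairs of members, with PF replicates 1 to 3 as blue circles, PF replicate 4 as a cross and SF as red circles. All pairs overlap between the stages when PF replicate 4 is counted, and *RICTOR/RPTOR* has the largest difference of means, 1.71.

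A wider list of pathway genes outside the set was called at the background rate. Of 81 genes listed 74 were tested and 14 passed (18.9%), 8 higher in SF and 6 lower, with a median log2 fold change of 0.11. Size factors from the oocyte list gave 48 higher and 0 lower (54.2% of all genes higher). Those from the granulosa list gave 0 higher and 38 lower (41.7% of all genes lower). Among the higher genes, *ULK1*, the kinase that starts autophagy and that mTORC1 inhibits, was at 6.26, 8.93, 8 and 11.3 TPM in PF and 19.5, 20.5 and 21.1 TPM in SF. The stages were wide apart in all 7 libraries (1.47 ± 0.32, DESeq2 adjusted p = 0.00021). *CAMKK2*, a kinase that activates AMPK, was at 84.0, 44.2, 44.3 and 50.4 TPM in PF and 118, 113 and 105 TPM in SF (1.10 ± 0.34, DESeq2 adjusted p = 0.011). *EIF4B*, a translation initiation factor downstream of S6 kinase, was 2.23-fold higher (1.16 ± 0.28, DESeq2 adjusted p = 0.0008). *PIK3IP1*, a membrane protein that binds and inhibits PI3K, was 2.16-fold higher (1.11 ± 0.28, DESeq2 adjusted p = 0.0013). *DEPDC5*, part of the GATOR1 complex that restrains mTORC1 when amino acids are scarce, was 2.60-fold higher (1.38 ± 0.43, DESeq2 adjusted p = 0.012). Its GATOR1 partners *NPRL2* and *NPRL3* had estimates below 0 and did not pass (-0.78 ± 0.35 and -0.51 ± 0.45, DESeq2 adjusted p = 0.1 and 0.46). *CAB39L*, a scaffold of STK11, was 2.68-fold higher (1.42 ± 0.35, DESeq2 adjusted p = 0.0011).

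The lower genes included subunits of complexes that position or restrain mTORC1. *LAMTOR5*, of the Ragulator complex that anchors mTORC1 at the lysosome, was at 1252, 1060, 670 and 279 TPM in PF and 497, 326 and 174 TPM in SF. PF replicate 4 lay inside the SF range (-1.44 ± 0.43, DESeq2 adjusted p = 0.0081). The other Ragulator genes *LAMTOR1* to *LAMTOR4* did not pass (DESeq2 adjusted p = 0.28 to 0.85). *TBC1D7*, the third subunit of the TSC complex, was at 55.7, 48.2, 45 and 27.2 TPM in PF and 21.2, 21.1 and 9.62 TPM in SF, lower in every SF library than in any PF library (-1.40 ± 0.39, DESeq2 adjusted p = 0.0047). *PRKAG1*, a regulatory AMPK subunit, was 2.29-fold lower (-1.19 ± 0.31, DESeq2 adjusted p = 0.0021), and *MTMR1*, a lipid phosphatase of the myotubularin family, 1.98-fold lower (-0.99 ± 0.23, DESeq2 adjusted p = 0.00058). Of the 10 called genes named here, *LAMTOR5* lost its call when PF replicate 1 or SF replicate 2 was left out (DESeq2 adjusted p of 0.062 and 0.065). *CAMKK2* lost it when PF replicate 2 or SF replicate 2 was (0.067 and 0.0543), and *DEPDC5* when SF replicate 3 was (0.058). With PF replicate 4 kept, *ULK1*, *DEPDC5*, *TBC1D7*, *CAMKK2* and *EIF4B* passed (DESeq2 adjusted p = 0.013 to 0.029) and the other 5 did not (0.084 to 0.21).

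**Figure D5:**
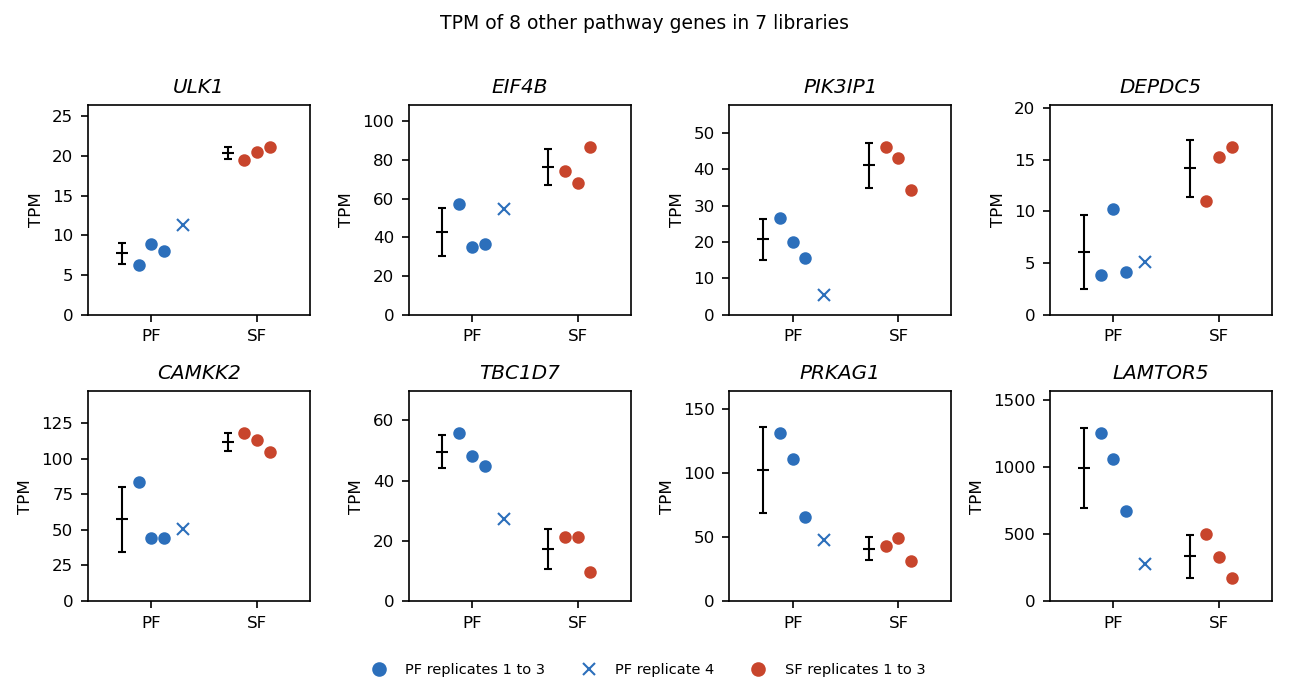
TPM of 8 called pathway genes outside the set in each library, with the mean ± SD over PF replicates 1 to 3 and SF replicates 1 to 3 in black. *ULK1*, *EIF4B*, *PIK3IP1*, *DEPDC5* and *CAMKK2* lie higher in all 3 SF libraries than in any PF library and *TBC1D7* lower, whereas PF replicate 4 falls within the SF range for *PRKAG1* and *LAMTOR5*.

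The last list held 30 symbols of genes known as targets of FOXO factors, which matched 29 genes, and 26 of these were tested. The 3 that passed are 11.5%, below the 19.1% called among all genes tested. All 3 were higher in SF, where 8.14% of all genes tested were higher. *CCND2*, a D-type cyclin of proliferating granulosa cells and a gene that FOXO factors are known to repress, was at 46.9, 39.4, 44.6 and 101 TPM in PF and 127, 138 and 173 TPM in SF. All SF libraries lay above all PF libraries (1.86 ± 0.34, DESeq2 adjusted p = 3.3e-06). *TXNIP*, a regulator of glucose uptake and redox state, was at 626, 468, 555 and 413 TPM in PF and 796, 1292 and 1503 TPM in SF, also without overlap (1.24 ± 0.37, DESeq2 adjusted p = 0.0084). *BBC3*, the proapoptotic gene for PUMA, was at 1.20 to 3.34 TPM in PF and 2.97 to 5.23 TPM in SF (1.74 ± 0.64, DESeq2 adjusted p = 0.039). *CCND2* kept its call with each library left out, *TXNIP* lost it when PF replicate 1, PF replicate 2 or SF replicate 2 was left out (DESeq2 adjusted p of 0.0534, 0.078 and 0.0512), and *BBC3* lost it without PF replicate 1, PF replicate 2, SF replicate 2 or SF replicate 3 (0.14, 0.14, 0.19 and 0.21). The *BBC3* call also ended with the filter of 10 counts in 3 libraries (DESeq2 adjusted p = 0.088) and in the fit that adds a library number term (0.15). With PF replicate 4 kept, *TXNIP* passed (DESeq2 adjusted p = 0.013) and *CCND2* and *BBC3* did not (0.085 and 0.27). Of the 26 genes 22 (84.6%) had a log2 fold change above 0, with a median of 0.98, beside 50.8% and 0.02 for all genes tested. PF replicates 1 to 4 are numbered 24, 34, 46 and 47 and SF replicates 1 to 3 are numbered 26, 48 and 49. Some targets differed more by library number than by stage. *GADD45A*, which was not called, was at 96.1, 99.5, 1086 and 859 TPM in PF and 68.3, 844 and 2298 TPM in SF. Others, such as *CCND2*, did not. The part of library number in these fold changes was not tested. The granulosa list size factors gave 0 targets higher and 6 lower (41.7% of all genes lower). Those from the oocyte list gave 25 higher and 0 lower (54.2% of all genes higher).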

How the data were processed

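RNA sequencing was available for 7 libraries, 4 of PF and 3 of SF, grouped by their titles. Per the labels and the study, cDNA was amplified with SMART-Seq v4, which does not mark strand and carries no molecular identifiers. Reads of overlapping genes therefore cannot be told apart, nor copies made in amplification from separate molecules. Trim Galore and Salmon are named in the submitters' processing notes, and the study names the ARS-UCD1.3 build. Per the file headers, the authors deposited an estimated count, a TPM and an effective length in bases for each RefSeq transcript.

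Of 76123 transcripts, 50205 (66.0%) were matched by accession to 23704 genes of a RefSeq table of ARS-UCD2.0, used for names only. The 25918 unmatched transcripts, 9.71% to 10.7% of the counts of a library, were left out. Gene values are sums over transcripts, of estimated counts (then rounded) and of TPM. Totals were 18788105 to 23764615 counts. No pair of libraries was a duplicate (chi-square per degree of freedom 97.8 to 628 within groups). No source used here links libraries to animals. The p-values therefore reflect only how these samples vary, and part of that variation may be technical.

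SF was compared with PF with DESeq2 1.42.0 (Wald test, R 4.3.3) over all genes, with a Benjamini-Hochberg adjusted p below 0.05, independent filtering at the same level and PF replicate 4 left out. Alternatives were edgeR 4.0.16 (quasi-likelihood), limma 3.58.1 (log2 TPM with a pseudocount of 1 or 0.1), TMM factors, size factors from the oocyte or granulosa list, an offset for transcript length, a filter of 10 counts in 3 libraries, PF replicate 4 included, a block for the replicate number, a covariate for the library number (below or above 40), independent filtering tuned to 0.1 (chosen after seeing the data), stricter calls (adjusted p below 0.01, or log2 fold change at least 1 in size) and leaving out each library. The fits were tested on simulated data. Pairs were compared as log2 of (TPM + 0.1) ratios by exact permutation in scipy 1.17.1. Python 3.11.15, numpy 2.4.6, pandas 2.3.3 and matplotlib 3.10.9 were used. Every member was accounted for, with values in each library for members called and for those whose 3 PF and 3 SF libraries did not overlap, and of the other lists at most 10 called genes each, by smallest adjusted p. Values in each library for *PIK3CD*, *PIK3R1*, *RHEB*, *AKT1S1*, *FOXO3* and *DDIT4* were added after they were seen. So were *GADD45A* and the uncalled partners of *DEPDC5* and *LAMTOR5*. The members, lists and tests were chosen with earlier results of these data known.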

Additional observations from a re-analysis of the deposited data

Results flagged for a closer look

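In the group of 4 PF libraries, 47 sets of values were tested for a library far from the rest, and 2 were flagged. That is no more than the share of about 1 in 20 that chance alone gives. Both were high values of PF replicate 4. *PDPK1* was at 10.3 TPM there, against 6.06 to 6.74 TPM in the other PF libraries and 3.44 to 9.41 TPM in SF, and its gap to the next library was 0.838 of the range of the group. *EIF4EBP2* was at 105 TPM, against 19.1 to 23.4 TPM in the other PF libraries and 19.3 to 33.1 TPM in SF, a gap of 0.949 of the range. PF replicate 4 is also the library with a stromal fibroblast marker sum of 7312 TPM, and the part of such cells in these values was not tested.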

How the results depend on the processing

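The counts of calls depended on the test and on single libraries. From 5 members, 14 other pathway genes and 3 FOXO targets, edgeR gave 0, 0 and 0, limma on log2(TPM + 1) gave 1, 1 and 1, and limma on log2(TPM + 0.1) gave 0, 0 and 0, with 8 members, 20 other pathway genes and 3 FOXO targets under an unadjusted p of 0.05 in edgeR, beside 26.9% of all genes (of all genes, 6.02% and 0.0152% were called by limma). The oocyte list size factors gave 27, 48 and 25 (54.5% of all genes), the granulosa list size factors 17, 38 and 6 (42.1%), and all 7 libraries 1, 5 and 1 (5.82%). An adjusted p below 0.01 left 1 member and 8 other pathway genes (10.5% of all genes). Leaving out each library in turn gave 1 to 11 members, 9 to 19 other pathway genes and 1 to 11 FOXO targets (12.4% to 25.5% of all genes). Members fell to 1 without PF replicate 1 or 2, to 2 without SF replicate 2 and to 3 without SF replicate 3, and numbered 11 without PF replicate 3. Other pathway genes fell to 9 without PF replicate 2 or SF replicate 2. FOXO targets fell to 1 without PF replicate 1, PF replicate 2 or SF replicate 2 and numbered 11 without PF replicate 3. TMM factors, the length offset, the count filter, the library number covariate, filtering tuned to 0.1 and the fold threshold kept all 3 counts within 1.5 times. With the count filter *AKT2* and *BBC3* lost their calls (DESeq2 adjusted p = 0.0538 and 0.088) and *PIK3R1* gained one (0.036), as it did with the length offset (0.047), *BBC3* lost its call with the library number covariate (0.15), and *IRS1* with filtering tuned to 0.1 (0.0509). The causes were not tested.

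The replicate number as a block gave 12 members (8 higher and 4 lower), 20 other pathway genes and 8 FOXO targets (28% of all genes), and *BBC3* lost its call (DESeq2 adjusted p = 0.12). Deviations of same-numbered libraries correlated at 0.26, -0.038 and 0.404, in the order of replicate number. Those of differently numbered libraries correlated at -0.432 to 0.267, and PF replicate 2 correlated best with SF replicate 1. So few correlations cannot decide whether same-numbered libraries share animals or a preparation, and no source used here says so. Whether the block carries a pairing was therefore not tested.

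Changes of sign concerned members not called above, most of them with values near 0. In edgeR, with TMM factors and with the length offset, *PIK3CB* was 0.071, 0.017 and 0.056 and *TSC1* 0.089, 0.051 and 0.016. With limma on log2(TPM + 1) and log2(TPM + 0.1), *PDPK1* was -0.052 and -0.076, *RHEB* -0.051 and -0.051, *DEPTOR* -0.673 and -0.697, *RPS6KB1* -0.019 and -0.019, and *PRKAA1* -0.097 and -0.108. *DEPTOR* was -0.591 with the length offset. Relative to the median of all genes, the oocyte list scaling gave *PIK3CB* 0.325, *TSC1* 0.341 and *PRKAA1* -0.049, and the granulosa list scaling *PHLPP2* -0.019 and *RPS6KB1* -0.053. With all 7 libraries *PDPK1* was -0.144, *TSC1* 0.163, *RHEB* -0.059, *MTOR* -0.233, *EIF4EBP1* -0.218 and *EIF4EBP2* -0.714. With the library number covariate *PDPK1* was -0.249, *PHLPP2* -0.055, *TSC1* 0.054, *RPS6KB1* -0.01 and *FOXO4* -0.289. The count filter gave *TSC1* 0.0 and the replicate block *PRKAA1* -0.003.

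With each library left out, values ran from -0.483 to 0.234 for *PIK3CB*, -3.053 to 0.092 for *PIK3R3*, -0.104 to 0.44 for *PDPK1*, -0.252 to 0.523 for *PHLPP2*, -0.308 to 0.219 for *TSC1*, -0.047 to 0.225 for *RHEB*, -0.151 to 0.581 for *MTOR*, -0.044 to 0.146 for *DEPTOR*, -0.191 to 0.329 for *RPS6KB1*, -0.234 to 1.471 for *FOXO4*, -0.267 to 0.219 for *PRKAA1* and -0.407 to 0.159 for *PRKAA2*. For the pairs they ran from -0.789 to 0.357 for *IRS1/IRS2* (0.136 with a pseudocount of 1), -0.224 to 1.481 for *PIK3R1/PIK3R2*, -0.552 to 0.122 for *PHLPP1/PHLPP2*, -0.282 to 0.22 for *TSC1/TSC2*, -0.17 to 0.671 for *FOXO1/FOXO3* and -0.443 to 0.554 for *PRKAA1/PRKAA2*.

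With 3 libraries a group, SE of 0.23 to 2.29 limited what could be called, most for members at a few TPM. With 1 library per range of library number in one stage, the stage could not be tested within a range. The shift of oocyte and granulosa RNA between stages cannot be told apart from changes within a cell type. Reads on unmatched models are not counted.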
